A study of Mus musculus with 38 samples.

Results

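The Ly6 surface antigens Ly6c1, Ly6c2, Ly6g, Ly6a, Ly6d and Ly6e were followed across mouse bone marrow after zoledronic acid (ZA), granulocyte colony-stimulating factor (G-CSF) or both. These 6 genes were taken by symbol through their Ensembl identifiers, out of 47729 genes in the whole marrow table and 46679 in the table of sorted cells. The mice were female C57BL/6J animals aged 6 to 7 weeks, and the labels give no engineered allele. The combined group received ZA by intraperitoneal injection at 100 µg/kg and recombinant human G-CSF at 50 µg/kg per day for 3 days beginning 2 days after ZA, the schedule given for this strain. The G-CSF and ZA groups received 1 of these agents at the same dose, and the untreated group neither. Whole marrow had 2 combined, 3 G-CSF, 2 ZA and 2 untreated libraries. Sorted precursors of sequencing run 1 had 3 combined, 3 G-CSF, 1 ZA and 1 untreated library, and run 1 also held 1 G-CSF, 1 ZA and 1 untreated marrow library. The precursors were depleted of lineage-marked cells (CD3, Ly-6G/Ly-6C, CD11b, CD45R, TER119) and sorted for CD115, the M-CSF receptor. The labels do not say whether a library comes from 1 mouse or a pool, and the p-values speak of spread between libraries, which may be technical.

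Ly6 proteins are small, disulphide-rich proteins, most of them held in the outer membrane leaflet by a glycolipid anchor, and several serve as antibody targets for sorting blood cells. In mice, Ly6c1 and Ly6c2 encode the Ly-6C antigen, high on inflammatory monocytes, and Ly6g encodes the Ly-6G antigen of neutrophils. Ly6a encodes Sca-1, used to isolate stem cells and raised by interferon, Ly6d marks lymphoid progenitors that turn to the B lineage, and Ly6e is a widely expressed, interferon-inducible member. G-CSF is the cytokine that drives neutrophil production, and ZA is a bisphosphonate that inhibits osteoclasts.

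All 6 genes lie on chromosome 15 of GRCm38 in the order Ly6d (74762056 to 74763620), Ly6e (74955051 to 74959905), Ly6a (74994877 to 74998031), Ly6c1 (75044018 to 75048830), Ly6c2 (75108158 to 75111970) and Ly6g (75155240 to 75159126). Ly6e and Ly6g are on the plus strand and the others on the minus strand. The coding sequences of Ly6c1 and Ly6c2 are given because the largest changes below concern how the signal divides between them. The first 300 coding bases are shown, from GENCODE vM21 on GRCm38, read 5′ to 3′, and capitals mark the bases at which the pair differ.
Ly6c1: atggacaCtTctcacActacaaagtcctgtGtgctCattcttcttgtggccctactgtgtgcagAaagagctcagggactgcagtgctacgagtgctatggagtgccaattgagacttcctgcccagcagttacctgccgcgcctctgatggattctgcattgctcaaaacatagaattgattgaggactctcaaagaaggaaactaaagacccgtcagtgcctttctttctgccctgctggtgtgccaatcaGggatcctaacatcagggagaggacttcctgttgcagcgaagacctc
Ly6c2: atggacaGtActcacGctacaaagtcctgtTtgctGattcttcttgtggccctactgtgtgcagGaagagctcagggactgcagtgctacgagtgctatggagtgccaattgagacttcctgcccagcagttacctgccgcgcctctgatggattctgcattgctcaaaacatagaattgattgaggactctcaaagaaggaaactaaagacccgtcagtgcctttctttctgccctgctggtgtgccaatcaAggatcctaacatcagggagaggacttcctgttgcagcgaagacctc
Here 7 bases differ, and 2 more differ in the rest. Both coding sequences run 396 bases and match at 387 of them, an identity of 97.7%, with 9 mismatches and no gap. The longest stretch without a difference is 188 bases, so a read inside it could come from either gene.

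The other members are farther apart. Ly6g and Ly6a share 83.2% of aligned coding bases, Ly6c1 shares 82.0% with Ly6a and 78.3% with Ly6g, and Ly6d and Ly6e stay between 45.1 and 50.1% against every other member and each other. Over whole transcripts, untranslated parts included, 46.8% of the 31-base words of Ly6c1 occur in another annotated gene and 33.0% in Ly6c2. The shared part is 31.9% for Ly6a, 23.8% for Ly6c2, 9.55% for Ly6g, 0.422% for Ly6e and 0% for Ly6d. How the counting divided shared reads cannot be seen in the deposited values, so Ly6c1, Ly6c2 and Ly6a are uncertain one by one, and the Ly6c pair is also given as a sum.

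Sequencing depth was 6.24 to 16.2 M estimated counts per marrow library and 21.0 to 33.2 M per run 1 precursor library. The 3 run 1 marrow libraries were the G-CSF, ZA and untreated replicate 2 libraries of the whole marrow table, counted once more, with totals equal to within 2 counts. They therefore add no independent marrow sample. Csf1r, the gene of the CD115 sorting antigen, was at 405 to 475 CPM (counts scaled to library size by TMM) in run 1 precursors and at 93.8 to 168 CPM in run 1 marrow, and so higher in each library sorted for it. The 18 run 2 libraries were kept out of the comparisons, because 8 of them lay nearest in overall expression to a run 1 library of the other tissue, 6 labelled precursor and 2 labelled marrow. Ly6g followed the nearest tissue in run 2. It was at 167 to 477 TPM in libraries nearest to marrow and at 1.18 to 105 TPM in those nearest to precursors. Of the 15 labelled precursor, 9 had more Ly6g than the 10.1 TPM (abundance scaled to transcript length and library size) that was the highest in run 1 precursors. These included G-CSF precursor replicate 2, at 477 TPM and nearest to marrow, and G-CSF precursor replicate 1, at 105 TPM and nearest to a precursor library. The run 2 library labelled G-CSF marrow replicate 2 was at 1.41 TPM.

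**Figure D1:**
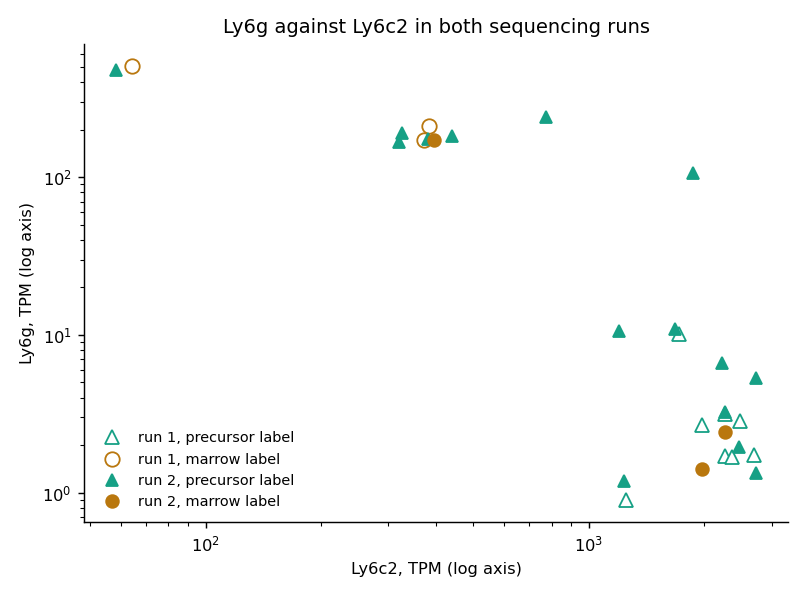
Ly6g (y, TPM, log axis) against Ly6c2 (x, TPM, log axis) in the 11 libraries of run 1 (open) and the 18 of run 2 (filled), with triangles for precursor labels and circles for marrow labels. In run 1 the labels separate along both axes; in run 2, 2 of the 3 circles lie among the precursors and several triangles lie among the marrow libraries.

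In whole marrow, Ly6c1 rose and Ly6c2 fell in the groups given G-CSF. Ly6c1 was at 18.2 and 19.4 CPM in combined-treatment marrow, 52.5, 54.0 and 28.6 CPM in G-CSF marrow, 3.31 and 4.30 CPM in ZA marrow and 4.75 and 3.60 CPM in untreated marrow. Each of the 5 libraries given G-CSF was above each of the 4 without it, and G-CSF replicate 3 was the lowest of its group. Against untreated marrow, Ly6c1 rose by 3.44 ± 0.35 log2 units with G-CSF (edgeR quasi-likelihood test, adjusted p = 0.000405) and by 2.18 ± 0.36 with the combination (adjusted p = 0.00795). As a log2 ratio of mean TPM the change with the combination was 3.33. In untreated marrow the Ly6c1 level rested on 21 and 22 estimated counts. Without untreated replicate 2, the rise with the combination was 1.98 and no longer passed (adjusted p = 0.0596).

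Ly6c2 went the other way, at 17.2 and 22.9 CPM in combined-treatment marrow, 68.6, 65.5 and 34.9 CPM in G-CSF marrow, 539 and 442 CPM in ZA marrow and 522 and 457 CPM in untreated marrow. All 5 libraries given G-CSF were below all 4 without it, with no overlap, and the combined libraries were the lowest. With G-CSF, Ly6c2 fell by 3.12 ± 0.28 log2 units against untreated marrow (adjusted p = 0.00021). With the combination it fell by 4.61 ± 0.35 (adjusted p = 0.000117). With the estimated counts of Ly6c1 and Ly6c2 added to 1 feature before the fit, the sum fell by 2.28 ± 0.26 with G-CSF (adjusted p = 0.000878) and by 3.67 ± 0.32 with the combination (adjusted p = 0.000278).

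The division within the pair changed with G-CSF. Of the summed Ly6c1 and Ly6c2 TPM, Ly6c1 took 57.2 to 62.6% in combined-treatment marrow and 54.7 to 56.6% in G-CSF marrow, against 0.961 to 1.51% in ZA marrow and 1.23 to 1.45% in untreated marrow. In run 1 precursors it took 0.236 to 0.382% in every treatment group. Whether a shift of shared reads between the copies contributed to this division was not tested. The summed feature cannot show it, because the sum is the same however reads are divided within the pair.

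**Figure D2:**
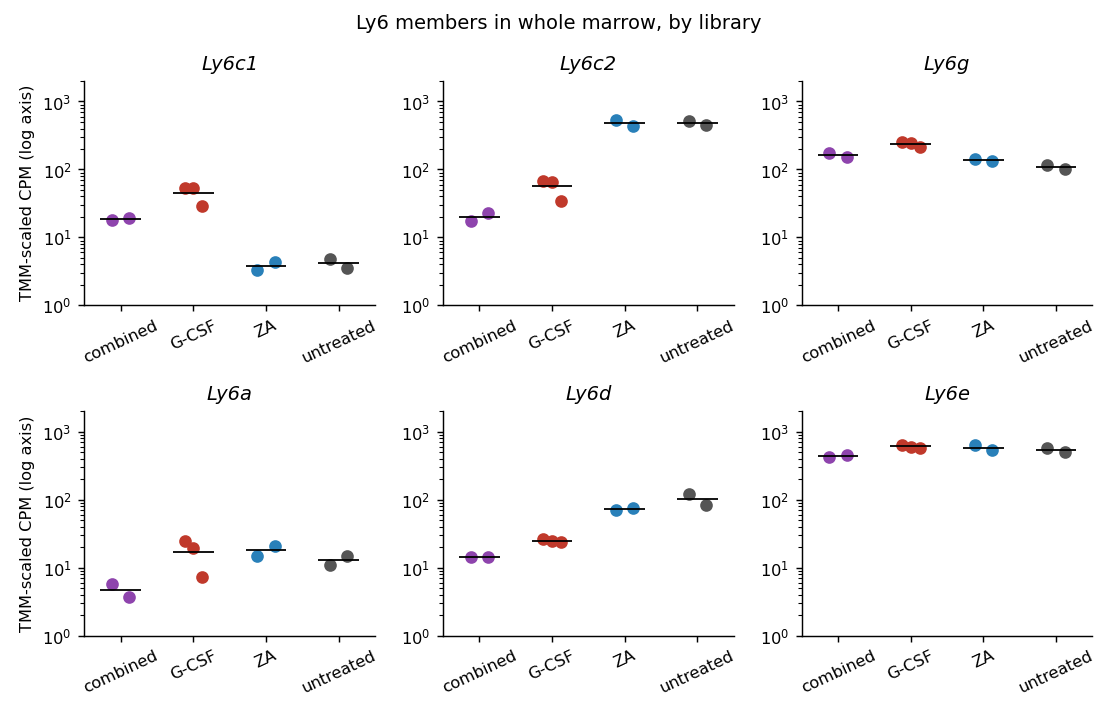
Level of each Ly6 member (y, TMM-scaled CPM, log axis) in every whole marrow library, with a dot for each library and a line at the group mean (2 combined, 3 G-CSF, 2 ZA, 2 untreated). Ly6c1 is high and Ly6c2 and Ly6d low in both groups given G-CSF, while Ly6e varies little.

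**Figure D3:**
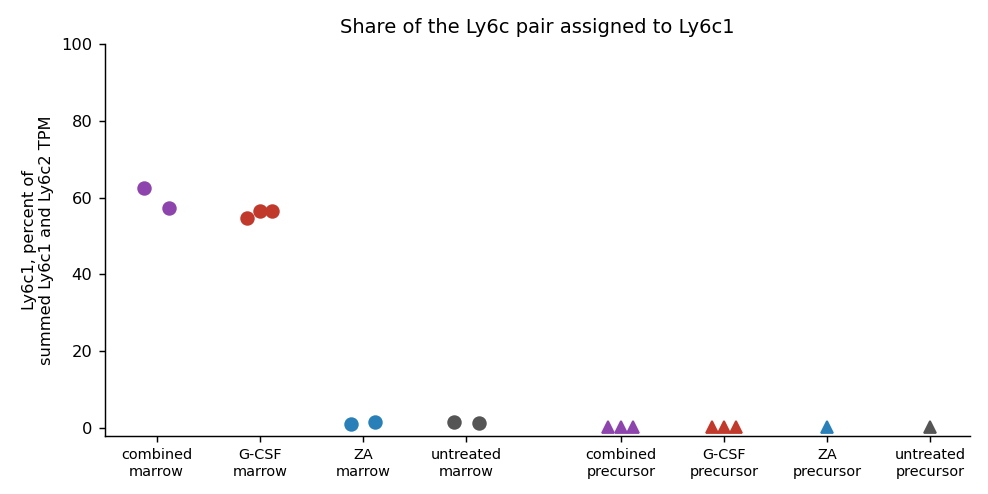
Share of the summed Ly6c1 and Ly6c2 TPM assigned to Ly6c1 (y, percent) in each whole marrow library (circles) and run 1 precursor library (triangles), by treatment. Marrow libraries given G-CSF lie between 54.7 and 62.6%, and all other libraries plotted lie below 2%.

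Ly6g, the neutrophil antigen, rose with G-CSF. It was at 176 and 150.2 CPM in combined-treatment marrow, 253, 246 and 212 CPM in G-CSF marrow, 141 and 135 CPM in ZA marrow and 117 and 101 CPM in untreated marrow, and the G-CSF group lay above every other group. The log2 change with G-CSF against untreated marrow was 1.12 ± 0.15 (adjusted p = 0.00232). With the combination it was 0.58 ± 0.16 (adjusted p = 0.0633), which did not pass, although both combined libraries were above both untreated ones. It passed with DESeq2, at 0.59 (adjusted p = 0.0135), and with library totals, at 1.20 (adjusted p = 0.00198). It also passed without G-CSF replicate 3, at 0.58 (adjusted p = 0.0469), a library that enters this comparison only through the shared estimate of spread. As a log2 ratio of mean TPM, which does not use TMM, the change was 1.90 with G-CSF and 1.70 with the combination. Of the 12 genes of the neutrophil marker list, none passed in either direction with G-CSF, where the list's median change was -0.0095 against 0.015 over all genes tested, and S100a9, Ngp and S100a8, its most abundant members, stood at -0.26 ± 0.24 (adjusted p = 0.506), 0.19 ± 0.15 (adjusted p = 0.412) and -0.54 ± 0.25 (adjusted p = 0.179). With the combination 3 of the 12 fell and none rose. The summed level of the list was 22209 to 37842 CPM in marrow given G-CSF and 34990.5 to 40963 CPM without it, and its part in the Ly6g change was not tested.

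Ly6d, the marker of B-lineage-directed progenitors, fell in both groups given G-CSF. Its level was 14.5 and 14.2 CPM in combined-treatment marrow, 26.7, 24.4 and 23.9 CPM in G-CSF marrow, 71.5 and 74.4 CPM in ZA marrow and 123 and 82.3 CPM in untreated marrow. No library given G-CSF reached the lowest one without it, and the combined pair lay below all 3 G-CSF libraries. It fell by 2.03 ± 0.18 log2 units with G-CSF (adjusted p = 0.000213) and fell by 2.84 ± 0.22 with the combination (adjusted p = 0.000118). As log2 ratios of mean TPM these were -1.18 and -1.64. Of the 13 genes of the B cell progenitor list, 1 fell and 0 rose with G-CSF (median -0.16), and none passed with the combination (median 0.34). Their summed level was 837 to 1225 CPM in marrow given G-CSF and 818 to 1141 CPM in marrow without it. In the plasmacytoid dendritic cell list, 4 of 10 genes fell with G-CSF and 4 with the combination. The part of these cell types in the Ly6d change was not tested.

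Ly6a and Ly6e did not pass in either comparison with untreated marrow. Ly6a, which encodes Sca-1, was at 5.82 and 3.65 CPM in combined-treatment marrow, 24.4, 19.8 and 7.28 CPM in G-CSF marrow, 15.1 and 21.1 CPM in ZA marrow and 11.1 and 14.9 CPM in untreated marrow. Its G-CSF libraries spread widely and overlapped both the ZA and the untreated ones, while the combined libraries were the lowest of all. The log2 change was 0.40 ± 0.46 (adjusted p = 0.614) with G-CSF and -1.45 ± 0.53 (adjusted p = 0.134) with the combination. The change with the combination passed without G-CSF replicate 3, at -1.45 (adjusted p = 0.0306), and without the low-count filter, at -1.41 (adjusted p = 0.00157). Of 12 stem and progenitor genes, 1 rose with G-CSF and 1 with the combination, and none fell, beside 4.93% and 3.17% of all genes higher. The median change of this list was 1.02 with G-CSF and 0.36 with the combination, against 0.015 and -0.012 over all genes. Ly6e was at 431 and 453 CPM in combined-treatment marrow, 645, 599.7 and 575 CPM in G-CSF marrow, 639 and 530.1 CPM in ZA marrow and 569.9 and 509 CPM in untreated marrow. The combined libraries were below the rest, the ZA libraries overlapped both the G-CSF and the untreated ones, and the G-CSF libraries were just above the untreated ones. Its log2 change was 0.17 ± 0.14 (adjusted p = 0.463) with G-CSF and -0.29 ± 0.15 (adjusted p = 0.284) with the combination. Scaling by library totals in place of TMM moved the median of all genes to 0.44 with G-CSF, and there Ly6e stood at 0.60 and passed (adjusted p = 0.00978).

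With G-CSF against untreated marrow, 4 of the 6 members were called, Ly6c1 and Ly6g higher and Ly6c2 and Ly6d lower, where 11.8% of the 14737 genes tested were called (4.93% higher and 6.91% lower). With the combination, 3 were called, Ly6c1 higher and Ly6c2 and Ly6d lower, against 7.72% of the same genes (3.17% higher and 4.55% lower). These comparisons share the untreated libraries. The counts over all genes moved with scaling: library totals gave 3232 genes higher and 525 lower with G-CSF, where TMM gave 727 and 1019, and 3709 higher and 330 lower with the combination, where TMM gave 467 and 670. In whole marrow, fewer cells of a type and less RNA per cell cannot be told apart.

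**Figure D4:**
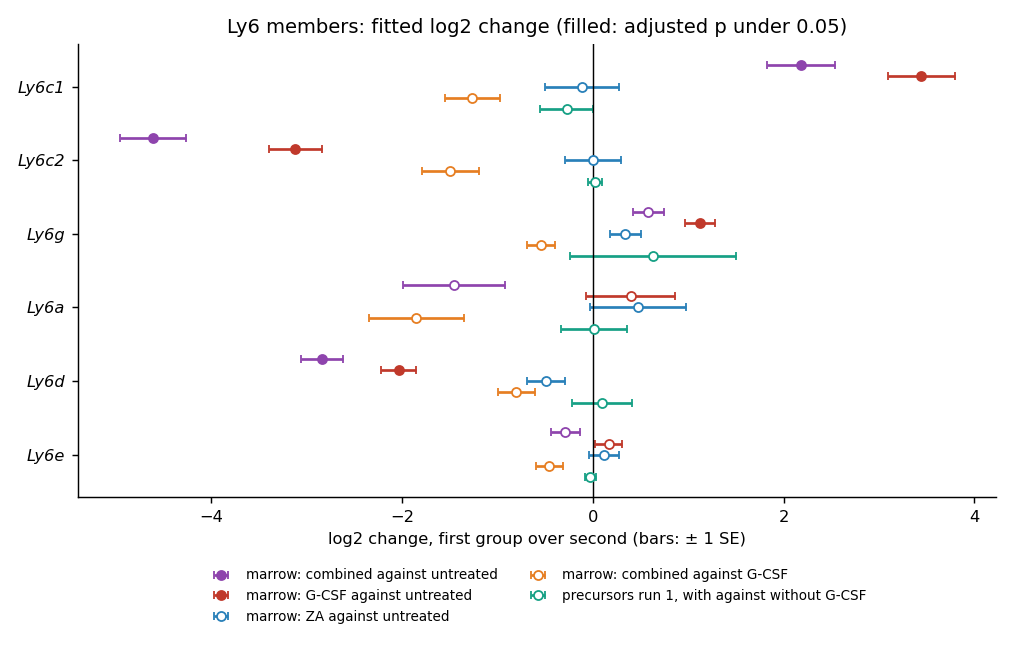
Fitted log2 change (x, first-named group over the second, bars ± 1 SE) of each Ly6 member (rows) in 4 whole marrow comparisons and in run 1 precursors with against without G-CSF; filled points passed an adjusted p under 0.05. Ly6c1, Ly6c2 and Ly6d are far from 0 in both marrow comparisons of G-CSF-given with untreated mice and near 0 in precursors. With ZA alone Ly6c1 and Ly6c2 are near 0 and Ly6d is at -0.49.

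ZA alone called no member against untreated marrow, where 5 of 14737 genes passed (0.0339%; 0.00679% higher and 0.0271% lower, and with library totals 1 gene higher). The log2 differences farthest from 0 were -0.49 ± 0.20 (adjusted p = 0.505) for Ly6d, 0.47 ± 0.51 (adjusted p = 0.791) for Ly6a and 0.34 ± 0.16 (adjusted p = 0.542) for Ly6g. Ly6c2 differed by 0.0027 ± 0.30. At an unadjusted p under 0.05, 1 member (Ly6d) passed, beside 1395 of the 14737 genes. DESeq2 called 139 genes and no member.

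All 6 members had lower values in combined-treatment than in G-CSF marrow, and none of the differences passed. The log2 difference of combined against G-CSF marrow was -1.85 ± 0.49 (adjusted p = 0.291) for Ly6a, -1.49 ± 0.29 (adjusted p = 0.206) for Ly6c2, -1.26 ± 0.29 (adjusted p = 0.257) for Ly6c1, -0.80 ± 0.19 (adjusted p = 0.257) for Ly6d, -0.54 ± 0.15 (adjusted p = 0.307) for Ly6g and -0.46 ± 0.14 (adjusted p = 0.346) for Ly6e. Each has an unadjusted p under 0.05, as had 1530 of the 14737 genes tested. For every member both combined libraries lay below all 3 G-CSF libraries, and how many of all genes had that order was not counted. One gene of 14737 passed (0.00679%) with edgeR. DESeq2 called 4 members among 204 genes, and leaving out the low-count filter gave 4 among 557 with edgeR. Ly6c2 passed without G-CSF replicate 3, at -1.74 (adjusted p = 0.0398). The interaction term, which sets the combination against ZA and G-CSF given singly and added on the log2 scale, was negative for all 6 members, from -2.32 for Ly6a to -0.32 for Ly6d. It called none of them with edgeR, beside 0.00679% of genes. At an unadjusted p under 0.05 there were 5 members, beside 1738 of the 14737 genes. DESeq2 called 2 members among 257 genes.

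Against ZA marrow Ly6c1, Ly6c2 and Ly6d were called in the same directions as against untreated marrow. Combined against ZA marrow called Ly6c1 (2.29 ± 0.35, adjusted p = 0.00629), Ly6c2 (-4.61 ± 0.35, adjusted p = 0.000124) and Ly6d (-2.35 ± 0.21, adjusted p = 0.000347), beside 4.33% of genes (1.87% higher and 2.46% lower, and with library totals 687 genes higher and 175 lower). Ly6a stood at -1.92 ± 0.53 (adjusted p = 0.0839) for combined against ZA marrow and did not pass. It was called with DESeq2 (adjusted p = 0.00908), without the low-count filter (adjusted p = 3.51e-06), with these 2 groups alone (adjusted p = 0.0467) and without G-CSF replicate 3 (adjusted p = 0.0136). Ly6g stood at 0.24 ± 0.16 (adjusted p = 0.513) there and passed with library totals, at 0.65 (adjusted p = 0.0336). G-CSF against ZA marrow called Ly6c1, Ly6c2, Ly6d and Ly6g (0.78 ± 0.15, adjusted p = 0.0174), beside 5.06% of genes (2.07% higher and 2.99% lower, and with library totals 561 genes higher and 273 lower). As a log2 ratio of mean TPM the Ly6g change was 1.18. The Ly6g call was lost in 4 fits, those that left out G-CSF replicate 1, G-CSF replicate 2, ZA replicate 2 and ZA replicate 3, where the change ran from 0.74 to 0.82. The Ly6c1 call of combined against ZA marrow was lost without ZA replicate 2, at 2.12.

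Genes of other marker lists passed in the same comparisons. Of 12 classical monocyte genes, 6 fell and none rose with G-CSF, and 6 fell with the combination (medians -0.59 and -0.69, against 0.015 and -0.012 over all genes). Their summed level was 996 to 1044 CPM in marrow given G-CSF and 1134 to 1697 CPM without it. Of 16 interferon-response genes, 9 fell with G-CSF and 8 with the combination, with sums of 366 to 565 CPM in marrow given G-CSF and 1410.0 to 1929 CPM without it. Rsad2 and Isg15, both interferon-induced, fell with G-CSF. Rsad2 stood at -2.27 ± 0.19 (adjusted p = 0.000172) and Isg15 at -2.25 ± 0.38 (adjusted p = 0.00772) on the log2 scale. Of 13 T and NK cell genes, 4 rose and 4 fell with G-CSF: Cd3d, a T cell receptor subunit, stood at 2.01 ± 0.22 (adjusted p = 0.0006), Nkg7 at 1.14 ± 0.21 (adjusted p = 0.00935) and Cd4 at -0.44 ± 1.02 (adjusted p = 0.812), and the Nkg7 call was lost without untreated replicate 2, at 0.97. Of the 11 erythroid genes tested, 5 fell with G-CSF and 7 with the combination, and none rose (medians -0.68 and -1.02). Their summed level was 105650.0 to 203975 CPM in marrow given G-CSF and 255901 to 417333 CPM without it, so each library given G-CSF was below each one without. Hbb-bs, an adult beta-globin gene, stood at -1.42 ± 0.24 (adjusted p = 0.00628) with G-CSF and -2.27 ± 0.28 (adjusted p = 0.00175) with the combination, and at -0.97, adjusted p = 0.00424, and -1.63, adjusted p = 0.00103, with library totals. Endothelial genes, a cell type in which Ly6c1 and Ly6a are known to be present, summed to 252 to 491 CPM in marrow with G-CSF and 145 to 295 CPM in marrow without it, and 1 of 11 rose. With 1 library left out, the genes lower with G-CSF were 3 to 7 for classical monocytes, 3 to 9 for the interferon response, 2 to 4 for the erythroid list and 1 to 4 for plasmacytoid dendritic cells. With library totals they were 4, 5, 3 and 1 in the same order, and 4 neutrophil genes and 4 endothelial genes were then higher. No marker of these lists was at 0 in every library of a treatment group of the whole marrow table, and the part of cell composition in the Ly6 changes was not tested.

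Genes on or off by G-CSF group in marrow were also picked out, so that they divide the marrow libraries follows from the choice. In all 5 marrow libraries given G-CSF 50 genes were at 1 TPM or more while at 0.1 TPM or less in all 4 without, and 11 genes showed the reverse. None of them lies on chromosome 15. Of the 47 on-with-G-CSF genes that are also in the precursor table, 0 were at 1 TPM or more in all 6 run 1 precursor libraries given G-CSF, and 22 were at 0.1 TPM or less in all 6. Of the 11 genes with the reverse pattern, 10 are in the precursor table. In the same 6 libraries 5 of them were at 1 TPM or more throughout and 2 at 0.1 TPM or less throughout. The precursors are a sorted part of the marrow. Neither precursors without G-CSF nor the like share among other marrow genes was examined. All groups carry the same strain label, and the protocols also describe nude mice. A difference in genetic background between the marrow donors and the effect of G-CSF cannot be told apart here, for the Ly6 members as for other genes.

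Some relatives and chromosomal neighbours also changed. Of 37 other genes with a Ly6 or urokinase-receptor domain, 11 were tested in marrow, and with G-CSF 1 rose and 2 fell, beside 11.8% of all genes tested. Ly6g5b, a family gene outside the cluster, rose by 2.15 ± 0.30 (adjusted p = 0.00264) on the log2 scale. Lynx1, which in neurons modulates nicotinic acetylcholine receptors, stood at -2.86 ± 0.42 (adjusted p = 0.0032) and Ly6i, a close relative of Ly6c1 and Ly6a, at -2.44 ± 0.54 (adjusted p = 0.0194). Ly6i shares transcript sequence with Ly6c1, Ly6a and Ly6g. The Ly6i call with G-CSF was lost without untreated replicate 1 or 2 or G-CSF replicate 1, where its change was -2.15, -2.68 and -2.51. With the combination Ly6g5b, Lynx1 and Ly6i stood at 2.06 ± 0.32 (adjusted p = 0.0058), -2.80 ± 0.49 (adjusted p = 0.0107) and -2.41 ± 0.62 (adjusted p = 0.0475), and the Ly6i call there was lost in 8 of 9 fits that left out 1 library. The Lynx1 call with the combination was lost without combined replicate 1, at -2.35 (adjusted p = 0.0916), and without untreated replicate 2, at -2.26 (adjusted p = 0.054). The Ly6g5b call was lost without combined replicate 1, at 1.86 (adjusted p = 0.0506).

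Within 250 kb of the cluster's ends 49 genes are annotated, of which 14 were tested in marrow, 8 of them not members. With G-CSF 3 of these 8 fell and none rose, beside 6.91% of all genes lower: Lynx1, Ly6i and I830127L07Rik, an annotated transcribed pseudogene on the minus strand of chromosome 15 (75131377 to 75135128) between Ly6c2 and Ly6g. I830127L07Rik was at 10.5 and 11.0 CPM in combined-treatment marrow, 10.9, 11.7 and 11.2 CPM in G-CSF marrow, 262 and 237 CPM in ZA marrow and 225 and 194 CPM in untreated marrow, with no overlap between libraries with and without G-CSF. Its log2 change was -4.22 ± 0.15 (adjusted p = 8.31e-07) with G-CSF and -4.29 ± 0.17 (adjusted p = 2.68e-06) with the combination. In run 1 precursors it was at 233 to 333 CPM with G-CSF and 233 to 259 CPM without. Ly6c2 shares 41 of 2714 transcript words of 31 bases with it, so a small part of the reads of this pair could also be shared.

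The genes most like each member across the 9 marrow libraries were sought among 6504 protein-coding genes by the root mean square difference of centred log2 CPM. For Ly6c1 they were Chil5, Cd3d and Fads3 (root mean square difference 0.528, 0.601 and 0.603 log2 units, where Ly6c1 itself spread by 1.53). For Ly6c2 they were Tspo2, Pnp2 and Isg15 (root mean square difference 0.503, 0.512 and 0.573 log2 units, where Ly6c2 itself spread by 1.95). For Ly6d they were Rps18, Chil3 and Rpl3 (root mean square difference 0.144, 0.275 and 0.276 log2 units, where Ly6d itself spread by 1.10). For Ly6g they were Rex1bd, Nol12 and Rps20 (root mean square difference 0.104, 0.124 and 0.126 log2 units, where Ly6g itself spread by 0.441). For Ly6a they were G0s2, Camp and Tomm5 (root mean square difference 0.431, 0.463 and 0.475 log2 units, where Ly6a itself spread by 0.859), and for Ly6e Plin3, AB124611 and Ahsa1 (root mean square difference 0.0453, 0.0592 and 0.0760 log2 units, where Ly6e itself spread by 0.194). Isg15 is interferon-induced, Cd3d belongs to T cells and Camp to neutrophil granules, and none of these was the gene most like its member. Cd3d was among 4 of 13 T and NK cell genes that rose with G-CSF, while 4 fell. The 9 libraries share 4 treatments.

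In run 1 precursors, Ly6c2 and Ly6e were abundant and the other members low. Ly6c2 was at 1248, 2369.8 and 1719 TPM in combined, 2479, 1974 and 2704 TPM in G-CSF, 2269.9 TPM in ZA and 2259 TPM in untreated precursors. Ly6e was at 726, 1220.0 and 899 TPM in combined, 1309.6, 1122 and 1315 TPM in G-CSF, 1259 TPM in ZA and 1238 TPM in untreated precursors. The treatment groups overlapped for both genes, and combined replicate 1 was the lowest for each. Over all 8 libraries, the level in TPM averaged 8.82 ± 3.08 for Ly6a, 6.96 ± 2.24 for Ly6c1, 3.10 ± 2.94 for Ly6g and 3.01 ± 0.620 for Ly6d (SD, n = 8, 4 treatments). Ly6g was at 0.892, 1.68 and 10.1 TPM in combined, 2.82, 2.68 and 1.73 TPM in G-CSF, 1.71 TPM in ZA and 3.15 TPM in untreated precursors, with combined replicate 3 apart from the rest. Over these 8 libraries, the genes most like Ly6g were Camp, Abcc1 and Ltf. Their root mean square differences were 0.348, 0.422 and 0.519 log2 units, where Ly6g itself spread by 0.905. Camp and Ltf are neutrophil granule genes.

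No member passed the test for a treatment difference within run 1 precursors. Combined against G-CSF precursors called no gene of 18779 (0%) with edgeR, although 1306 had an unadjusted p under 0.05, among them 2 members, Ly6c2 (-0.18 ± 0.077, adjusted p = 0.712) and Ly6e (-0.15 ± 0.059, adjusted p = 0.701). DESeq2 called 91 genes and no member. The Ly6g difference was 1.03 ± 0.84 (adjusted p = 0.823) and turned to -0.71 without combined replicate 3. With against without G-CSF called no gene either (0%) with edgeR, where 682 genes and no member had an unadjusted p under 0.05, and DESeq2 called 30 genes and no member. There Ly6c2 differed by 0.024 ± 0.077 and Ly6c1 by -0.27 ± 0.28, with 6 libraries given G-CSF and 2 without. The 17 precursor libraries of both runs that the labels mark for the final comparison also called no member, though several of them go against their tissue label.

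**Figure D5:**
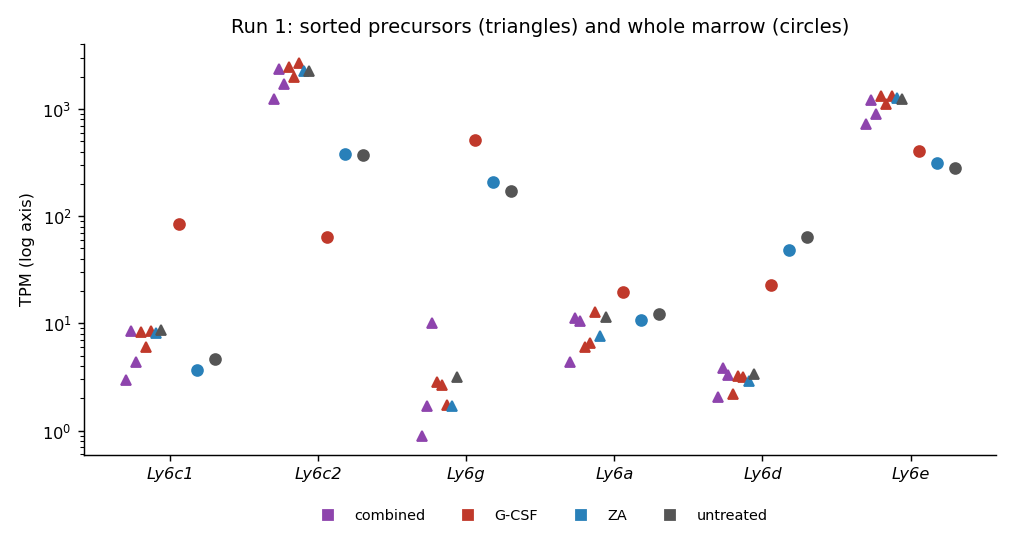
Level of each Ly6 member (y, TPM, log axis) in the 8 precursor libraries (triangles) and the 3 marrow libraries (circles) of run 1, coloured by treatment. Ly6c2 and Ly6e lie higher and Ly6g and Ly6d lower in precursors than in marrow, and the G-CSF marrow library stands apart for Ly6c1 and Ly6c2.

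Against run 1 marrow, precursors had less Ly6d and Ly6a and more Ly6e. The sort depleted lineage-marked cells, CD45R included, and its part in the Ly6d difference was not tested. Ly6d was at 1.78 to 3.56 CPM in precursors and 32.1 to 108 CPM in marrow, and Ly6a at 3.42 to 7.86 CPM in precursors and 13.8 to 19.0 CPM in marrow. Ly6e was at 1283 to 1557 CPM in precursors and 639.8 to 767 CPM in marrow. In a fit of the 5 G-CSF, ZA and untreated precursor libraries and the 3 marrow libraries with treatment as a term, the log2 change was -4.53 ± 0.37 (adjusted p = 9.08e-05) for Ly6d, -1.54 ± 0.30 (adjusted p = 0.00489) for Ly6a and 1.03 ± 0.10 (adjusted p = 0.000189) for Ly6e, beside 41.7% of 18705 genes called (19.3% higher and 22.4% lower, and with library totals 7685 genes higher and 2769 lower). Library totals shifted the median of all genes by 0.63 and put Ly6a at -0.97 and Ly6e at 1.60. The Ly6a call was lost in 1 of the 8 fits that left out 1 library, that without G-CSF marrow replicate 2, at -1.30 (adjusted p = 0.0506).

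Ly6c2, Ly6g and Ly6c1 encode antigens that the sort itself excluded, so their differences from marrow are given as a description. Ly6c2 was at 1567 to 2053 CPM in precursors, and at 79.4 CPM in G-CSF, 626 CPM in ZA and 555 CPM in untreated marrow. Its transcript was thus above every marrow library in cells sorted as negative for the lineage cocktail. Ly6g was at 0.627 to 5.40 CPM in precursors and 145 to 353 CPM in marrow. Ly6c1 was at 2.41 to 4.27 CPM in precursors, and at 67.3 CPM in G-CSF, 3.92 CPM in ZA and 4.39 CPM in untreated marrow. Leaving out the G-CSF libraries of both tissues, an alternative chosen after seeing the data, put the Ly6c1 difference at -0.018 in place of -2.26 and that of Ly6c2 at 1.52 in place of 2.60.

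The sort depleted cells marked by Ly-6G/Ly-6C, CD11b and CD45R and selected CD115, so the neutrophil, B cell and monocyte list levels are also given as a description. In precursors the 12 neutrophil genes summed to 596 to 1217 CPM, against 44893 to 50887 CPM in run 1 marrow, and all 12 were lower. The 13 B cell progenitor genes summed to 29.5 to 62.9 CPM in precursors, against 1158 to 1436 CPM in marrow. The 12 classical monocyte genes summed to 6643 to 8074 CPM in precursors, against 1284 to 2086 CPM in marrow, and 10 of them were higher. Of the other Ly6 and urokinase-receptor domain genes, 14 were tested, of which 7 were lower and 1 higher in precursors. Those named by level were Cd177, the neutrophil antigen (-4.28 ± 0.25, adjusted p = 1.62e-05), Plaur, the urokinase receptor (-1.08 ± 0.19, adjusted p = 0.00307), the complement inhibitors Cd59a (-5.82 ± 0.26, adjusted p = 5.54e-06) and Cd59b (-0.95 ± 0.29, adjusted p = 0.0319), Ly6g5b (-3.59 ± 0.42, adjusted p = 0.000468), Ly6g6f (-7.17 ± 0.83, adjusted p = 0.000454) and, higher, Ly6i (1.27 ± 0.43, adjusted p = 0.0483). The Cd59b call was lost in 6 of the 8 fits that left out 1 library and the Ly6i call in 5 (from 0.54 to 1.64). With library totals Plaur stood at -0.49, Cd59b at -0.38 and Them6 at -0.70. In the window around the cluster, Them6 was lower (-1.28 ± 0.18, adjusted p = 0.00106) and the pseudogene Gm5960 higher (1.60 ± 0.36, adjusted p = 0.0101), at 2.41 without G-CSF marrow replicate 2. The Gm5960 call was lost without ZA precursor replicate 3, at 1.46 (adjusted p = 0.05).

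The G-CSF change of the Ly6c pair differed between precursors and marrow. In 1 fit of the 11 run 1 libraries, an analysis added after seeing the data, the change with G-CSF in precursors minus that in marrow was 3.01 ± 0.16 (adjusted p = 0.000174) for Ly6c2 and -4.12 ± 0.45 (adjusted p = 0.00578) for Ly6c1, beside 3.0% of 19962 genes called (1.96% higher and 1.03% lower, and with library totals 250 genes higher and 745 lower). Both were called in each of the 6 fits that left out 1 library and could be made. Each of these left out a precursor library, and those of the combined group enter only through the shared estimate of spread. No marrow library could be left out, so these fits cannot show how far the result rests on 1 marrow library. For Ly6d the difference was 1.57 ± 0.41 (adjusted p = 0.0936) and did not pass. It passed with DESeq2, at 1.59 (adjusted p = 0.0154), and without G-CSF precursor replicate 1, at 1.77 (adjusted p = 0.0486). Each marrow group has 1 library in run 1, so the spread behind this test comes mostly from the precursors, and the marrow libraries are assumed to vary like them.

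By TPM, which is set per transcript length, the order of the members changed with G-CSF. In combined-treatment marrow the order by mean TPM was Ly6g (424 ± 23.7), Ly6e (377 ± 33.6), Ly6c1 (36.98 ± 3.71), Ly6c2 (25.1 ± 6.46), Ly6d (17.02 ± 0.576) and Ly6a (5.87 ± 1.58; SD, n = 2). In G-CSF marrow it was the same, with Ly6g at 486 ± 21.9, Ly6e at 407 ± 21.7, Ly6c1 at 68.6 ± 17.7, Ly6c2 at 54.2 ± 14.1, Ly6d at 23.4 ± 1.36 and Ly6a at 16.3 ± 7.27 TPM (SD, n = 3). In ZA marrow Ly6c2 came first (362 ± 29.9 TPM), before Ly6e (295 ± 22.0), Ly6g (214 ± 5.65), Ly6d (51.6 ± 4.44), Ly6a (13.5 ± 3.92) and Ly6c1 (4.47 ± 1.07; SD, n = 2). Untreated marrow had the order of ZA marrow, from Ly6c2 (279.9 ± 131 TPM) to Ly6c1 (3.69 ± 1.32 TPM; SD, n = 2), with Ly6e, Ly6g, Ly6d and Ly6a between. In G-CSF marrow the ranges of Ly6c1 and Ly6c2 overlapped, while in combined-treatment marrow no neighbours in this order did. In untreated marrow the neighbours Ly6c2 and Ly6e, Ly6e and Ly6g, and Ly6a and Ly6c1 overlapped in range, and in ZA marrow none did.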

How the data were processed

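Whole marrow and sorted precursor RNA were sequenced on an Illumina instrument, per the labels' protocols, with the strand not given in the sources used here. The deposited tables hold the authors' estimated counts and TPM values per gene, made with Salmon on mm10, with DESeq2 1.16.1 also named, per the submitters' processing notes. The gene annotation was not given in the sources used here, and 99.12% of identifiers matched GENCODE vM21 (GRCm38). Estimated counts were rounded and fitted with edgeR 4.0.16 (R 4.3.3) by the quasi-likelihood test after TMM scaling and a filter on low counts (10 in a library, 15 in all), with Benjamini-Hochberg adjustment over all genes tested and a threshold of 0.05. All 9 marrow libraries entered 1 fit. A count of 3, taken as the floor, was 0.186 to 0.481 CPM in marrow and 0.0904 to 0.143 CPM in run 1 precursors, and covers counting error only. Named beyond the members were called relatives and neighbours at a mean of 1 CPM or more, the 3 most like genes per member, and up to 3 most abundant genes of a marker list. A gene of the interferon-response list is not reported here and was left out of its counts and sums. The members and lists were chosen with earlier results of these data known. Alternatives were DESeq2 1.42.0, no filter, library totals, no small RNA genes, the replicate block, fewer groups and each library left out. The fits were checked on simulated data.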

Additional observations from a re-analysis of the deposited data

Results flagged for a closer look

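The G-CSF change of 4 genes differed between run 1 precursors and run 1 marrow by a test of the difference itself. Precursors minus marrow, it was 3.01 log2 units for Ly6c2, -4.12 for Ly6c1, 4.51 for I830127L07Rik (adjusted p = 0.00187 with edgeR) and 2.67 for Lynx1 (adjusted p = 0.0499 with edgeR). The Lynx1 call was lost in each of the 6 fits that left out 1 precursor library, where its difference was 2.41 to 2.82. The call was also lost with library totals. Of 19962 genes tested, 598 (3.0%) were called. Each marrow group has 1 library in run 1, so the spread behind these p-values comes mostly from the precursors. The test was added after seeing the data.

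In run 2, which entered no comparison, combined precursor replicate 3 stood far from the others of its labelled group for Ly6c1 and Ly6g. G-CSF precursor replicate 2 did so for Ly6g and Ly6d. Both lay nearest to G-CSF marrow replicate 2 of run 1. Among the 4 combined libraries the highest had 26.7 TPM of Ly6c1 and 242 TPM of Ly6g, and among the 5 G-CSF libraries the highest had 477 TPM of Ly6g and 18.9 TPM of Ly6d. These are 4 of 18 sets of a member and a group that were examined, and chance flags about 1 in 20. The flagged sets are not independent, because each of these libraries gave more than 1 of them. The 477 TPM of Ly6g was also the highest value in any run 2 library labelled precursor, where run 1 precursors reached 10.1 TPM. The tissue of these libraries was not tested beyond their nearest run 1 library.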

How the results depend on the processing

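Ly6c1, Ly6c2 and Ly6d kept their direction and call against untreated marrow with G-CSF under each alternative that gave a test, and 4 members were called there in each fit that left out 1 library. Members called with the combination against untreated marrow were 3, against 4 with DESeq2 and with library totals (Ly6g added), 4 without the filter (Ly6a added), and 2 to 5 with 1 library left out. For combined against G-CSF they were 0, 4 with DESeq2 and 4 without the filter, and 0 to 1 with 1 library left out. For the interaction they were 0, 2 with DESeq2 and 2 without the filter. For precursors against marrow they were 5, and 0 with run 2 libraries, where the log2 differences turned to 2.06 for Ly6g, 0.75 for Ly6d, 0.57 for Ly6c1, 0.46 for Ly6a, -0.39 for Ly6c2, -0.25 for Ly6e, 1.53 for Cd177, 1.34 for Ly6g5b, 0.89 for Ly6g6f, 0.86 for Cd59a, 0.35 for Them6, 0.20 for Plaur, -0.32 for Gm5960 and -0.091 for Ly6i. The 5 include Ly6c2 and Ly6g, whose antigens the sort excluded and which are given as a description only. The others are Ly6d, Ly6a and Ly6e. Several run 2 libraries go against their tissue label. Leaving out the G-CSF libraries, chosen after seeing the data, is given with that comparison.

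With library totals, Ly6e turned to 0.33 for combined against untreated and 0.018 for combined against ZA, Ly6a to 0.12 for G-CSF against ZA, Ly6c1 to 0.10 for ZA against untreated, and Cd4 to 0.045 for G-CSF against untreated. Log2 ratios of mean TPM put these Ly6 values at 0.83, 0.35, 0.27 and 0.28. For ZA against untreated, DESeq2 gave -0.015 for Ly6c2. In precursors with against without G-CSF, library totals gave -0.0086 for Ly6c2 and -0.016 for Ly6a, the 2-group fit gave -0.0065 for Ly6a, and the 17 libraries of both runs gave -4.34 for Ly6g, -3.04 for Ly6d, -0.73 for Ly6a and 0.24 for Ly6e. The cause was not tested.

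Changes of direction with 1 library left out were, as ranges, for ZA against untreated, Ly6c2 -0.15 to 0.14, Ly6e -0.029 to 0.25, Ly6c1 -0.32 to 0.085; for G-CSF against ZA, Ly6e -0.076 to 0.20, Ly6a -0.40 to 0.28; for combined against G-CSF precursors, Ly6g -0.71 to 1.46; for precursors with against without G-CSF, Ly6g -0.23 to 1.06, Ly6c2 -0.0088 to 0.044, Ly6e -0.057 to 0.0018, Ly6d -0.020 to 0.20, Ly6a -0.27 to 0.29; for precursors against marrow, Ly6c1 -2.94 to 0.018; for G-CSF against untreated, Cd4 -1.19 to 1.11.

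Replicate numbers did not pair the libraries (correlation of same-numbered deviations -0.0386 to 0.112 in marrow and -0.0324 to -0.0145 in precursors). The replicate block changed no count of members except in precursors against marrow, 4 in place of 5. The call lost there was that of Ly6c2, at 2.53 (adjusted p = 0.21), whose antigen the sort excluded. With the block Ly6c1 turned to 0.065 for ZA against untreated. The block also ended the calls of Ly6i with G-CSF and with the combination against untreated (-2.40 and -2.38) and with G-CSF against ZA (-2.53), and those of Gm5960 (1.83, adjusted p = 0.0655), Cd59b (-0.61, adjusted p = 0.4) and Ly6i (1.23, adjusted p = 0.21) in precursors against marrow. All genes called, with 1 library left out and then under the other settings in parentheses, were 1746 (836 to 1706; 1361 to 3757) for G-CSF and 1137 (296 to 1353; 481 to 4039) for combined against untreated, 5 (0 to 23; 0 to 634) for ZA against untreated, 1 (0 to 18; 0 to 557) for combined against G-CSF, 638 (251 to 713; 387 to 1587) for combined and 746 (328 to 836; 521 to 1732) for G-CSF against ZA, 1 (0 to 10; 0 to 746) for the interaction, 7797 (5660 to 7633; 0 to 10454) for precursors against marrow and 598 (269 to 435; 598 to 1250) for the difference in G-CSF change. The lowest of these counts came without untreated replicate 2 (836 with G-CSF against untreated), combined replicate 1 (296 with the combination against untreated) and ZA replicate 2 (328 with G-CSF against ZA); without either combined replicate, 251 passed against ZA, and without G-CSF precursor replicate 3, 269 passed in the difference. With 2 libraries in 3 marrow groups, leaving 1 out assumes that the lone library varies like the others. Low counts limit Ly6c1 in marrow without G-CSF and Ly6g and Ly6d in precursors.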
